A study of Mus musculus with 2 samples.

Results

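The serotonin receptor genes were followed in whole midbrain of newborn mice (postnatal day 0). The 10 genes are Htr1a, Htr1b, Htr1d, Htr2a, Htr2c, Htr3a, Htr4, Htr5a, Htr6 and Htr7, found by symbol among 43346 genes with an Ensembl identifier, and all 10 were matched. The mice were of strain B6NTac;B6NCrl/Lap, healthy, with both sexes mixed in each pool, and carried no treatment or engineered allele named in the labels. Replicate 1 came from a pool of 15 animals and replicate 2 from a pool whose size the labels do not give. Both are described as biological replicates from separate tissue isolates and carry the same donor record, and the 2 libraries form a single group, so levels and ratios are described without a test or a p-value. The RNA was over 200 nucleotides long, depleted of ribosomal RNA, and read from stranded libraries as pairs.

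Serotonin is made by neurons of the raphe nuclei, of which the dorsal raphe reaches into the midbrain, and is released from axons throughout the brain. All of its receptors but the type 3 family are G protein-coupled: the type 1 and type 5 receptors act through Gi/o and lower cyclic AMP, the type 2 receptors act through Gq and phospholipase C, and types 4, 6 and 7 act through Gs and raise cyclic AMP. The type 3 receptor is a cation channel built from subunits. In the midbrain these receptors are known from dopamine neurons, the periaqueductal grey, the colliculi and, as autoreceptors, from serotonin neurons themselves.

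Levels are in TPM, the deposited transcript abundance scale that divides each gene's reads by its length. Total counts were 46685706 in replicate 1 and 72779229 in replicate 2. Protein-coding genes took 21.1% of all TPM in replicate 1 and 18.2% in replicate 2. Here and below these are the 21461 nuclear genes matched as protein-coding. The rest was all other RNA quantified, mitochondrial messages and unmatched identifiers included, so TPM values of nuclear mRNAs are low on this scale. With TPM rescaled to protein-coding genes alone, Htr7 had 25.9 TPM in replicate 1 and 28.8 TPM in replicate 2. Htr3a had 1.14 TPM in replicate 1 and 0.877 TPM in replicate 2 on that scale. All 6 midbrain markers and all 4 neuron markers reached a TPM of at least 1 in both libraries. The libraries stood apart in markers of neighbouring tissue: the 10 choroid plexus markers summed to 18.9 TPM in replicate 1 and 173 TPM in replicate 2, and the 8 hindbrain Hox genes to 0.72 TPM in replicate 1 and 7.57 TPM in replicate 2. In whole tissue, fewer cells of a type and less RNA per cell cannot be told apart.

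Messages of Htr2c and Htr7 are known to be spliced into forms that encode different proteins, and the sequences where those forms part are shown here because the levels of these 2 genes divided among several forms. Sequences were read from GENCODE release M21 transcripts on mm10. The first is a segment of 95 bases of Htr2c, on the plus strand at chrX:147169676-147169770, that the main form keeps and the short forms lack. Its capitals mark the codons for isoleucine, arginine, asparagine, proline and isoleucine in the second intracellular loop, where ADAR enzymes are known to edit adenosines to inosine.
Htr2c segment: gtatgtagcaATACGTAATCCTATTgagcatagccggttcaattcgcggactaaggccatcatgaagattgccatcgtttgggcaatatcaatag
In the Htr2c junctions that follow, capitals mark the next exon.
Htr2c-201: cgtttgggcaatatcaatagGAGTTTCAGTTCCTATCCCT
Htr2c-207: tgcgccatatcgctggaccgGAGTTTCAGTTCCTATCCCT
Htr2c-203: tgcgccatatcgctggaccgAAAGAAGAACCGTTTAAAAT
Htr2c-201 ends the upstream exon after the segment and encodes 459 codons. Htr2c-207 joins the same next exon but leaves out the segment, and its annotated reading frame holds 172 codons. Htr2c-203 leaves out the segment too, joins a different last exon and holds 173 codons.
The Htr7 forms, on the minus strand of chr19, part at the end of the second exon. Capitals mark 5 extra bases in Htr7-205 and the start of an extra exon of 97 bases in Htr7-201.
Htr7-205: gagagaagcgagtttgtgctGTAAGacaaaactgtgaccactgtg
Htr7-202: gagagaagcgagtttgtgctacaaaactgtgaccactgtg
Htr7-201: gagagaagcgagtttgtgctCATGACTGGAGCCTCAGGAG
Htr7-205 encodes 435 codons, Htr7-202 448 and Htr7-201 470, and the proteins differ in the tail inside the cell.

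In order of level the receptors ran from 3 genes above 4 TPM, through 3 near 2 TPM and 3 near 1 TPM, to Htr3a, which lay well below the rest. Htr7, Htr2c and Htr1b each stood above 4 TPM in both libraries and together held 62.3% of the summed TPM of the 10 genes in replicate 1 and 61.0% in replicate 2. Of the 10 genes, 6 reached 1 TPM in both libraries, beside a background of 53.8% of protein-coding genes (11539 of 21461). These 10 genes were thus detected about as often as protein-coding genes at large. The median of their mean levels was 1.85 TPM, against 1.77 TPM over protein-coding genes. Both likenesses hold for the 10 listed genes only. Of all 14 serotonin receptor genes of the mouse, 6 passed, a smaller share than the background, and their median was 0.96 TPM. Just inside the limit stood Htr2a, with 1.49 TPM in replicate 1 and 1.95 TPM in replicate 2. Just outside it stood Htr4, which passed in replicate 1 alone, and Htr6, which passed in replicate 2 alone.

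**Figure D1:**
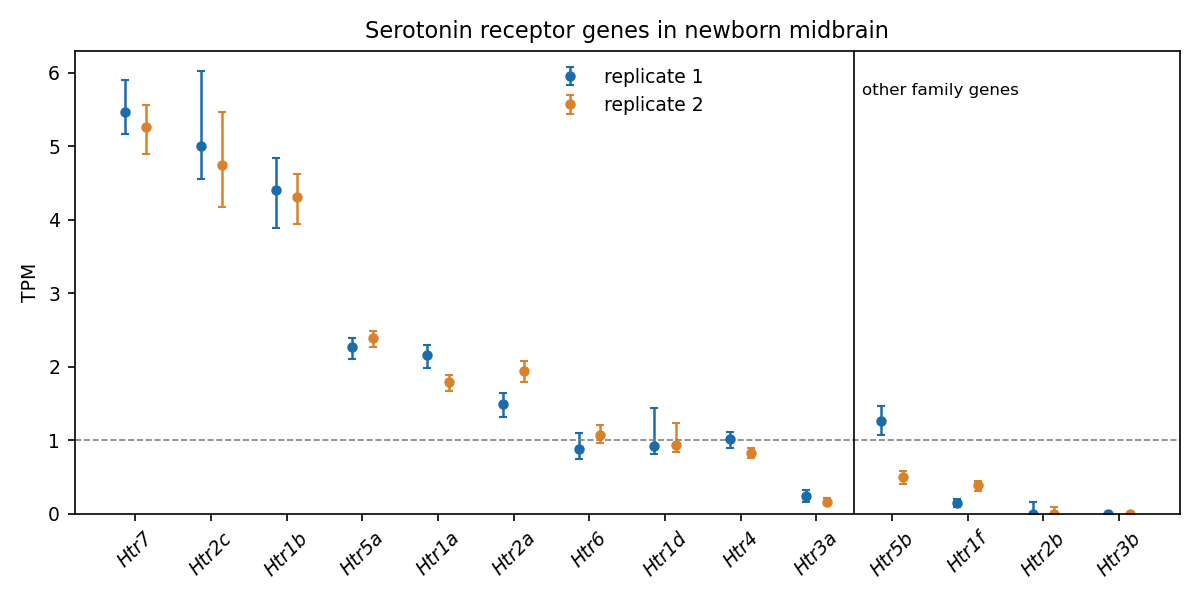
TPM (vertical axis) of the 10 serotonin receptor genes, ordered by mean level, and of 4 other family genes right of the line, in replicate 1 (left point, blue) and replicate 2 (right point, orange). Bars are the authors' deposited credibility bounds and the dashed line is 1 TPM: Htr7, Htr2c and Htr1b lie above 4 TPM in both libraries and Htr3a below 0.3.

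Among the Gs-coupled receptors, Htr7, known for roles in circadian timing and body temperature, had the highest deposited level of the 10 genes, a lead that was lost when only its protein-coding transcripts were counted (3.56 TPM, below Htr1b and Htr2c). Its level was 5.47 TPM in replicate 1 and 5.26 TPM in replicate 2 (mean 5.37 ± 0.148, SD, n = 2), from 1076 and 1780 estimated counts. It lies on chromosome 19 from 35958734 to 36057507 on the minus strand (mm10). On this scale 67.1% of protein-coding genes had a lower mean level. Htr6, a receptor found in neuronal primary cilia, had 0.88 TPM in replicate 1 and 1.08 TPM in replicate 2 (mean 0.98 ± 0.141), from 135 and 317 estimated counts, and lies on chromosome 4 from 139061108 to 139075570. Htr4, known from the gut, the heart and the limbic forebrain, had 1.02 TPM in replicate 1 and 0.83 TPM in replicate 2 (mean 0.925 ± 0.134), from 341 and 516 estimated counts. Neither of the lower 2 Gs genes came near Htr7: the ratio of Htr7 to Htr6, as log2 of TPM plus 0.1, averaged 2.35, and that of Htr7 to Htr4 averaged 2.42. Htr7 made up most of the Gs sum, which was 7.37 TPM in replicate 1 and 7.17 TPM in replicate 2.

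Of the Gq-coupled pair, Htr2c, known for its part in feeding and mood and abundant in choroid plexus epithelium, was second of the 10 genes. Its level was 5.0 TPM in replicate 1 and 4.74 TPM in replicate 2 (mean 4.87 ± 0.184, SD, n = 2), from 1455 and 1942 estimated counts. Htr2c lies on the X chromosome from 146962513 to 147197277 on the plus strand. Ttr, the main secreted product of choroid plexus epithelium, had 14.4 TPM in replicate 1 and 163 TPM in replicate 2. The level of Htr2c as a whole gene did not differ in this way. How much of it came from choroid plexus was not tested. Htr2a, the receptor through which classical hallucinogens act, had 1.49 TPM in replicate 1 and 1.95 TPM in replicate 2 (mean 1.72 ± 0.325), from 308 and 745 estimated counts, and lies on chromosome 14 from 74640840 to 74709494. Its quantified transcript was 2971 bases long, against 5606 bases for the same transcript in the later annotation, and reads from the added part were not counted in its level. Htr2c exceeded Htr2a by a log2 ratio of 1.68 in replicate 1 and 1.24 in replicate 2, at least 2-fold in both.

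The Gi/o-coupled genes were led by Htr1b, the autoreceptor on serotonin axon terminals, which is also present on the terminals of other neurons. Htr1b had 4.40 TPM in replicate 1 and 4.31 TPM in replicate 2 (mean 4.36 ± 0.0636, SD, n = 2), from 960 and 1397 estimated counts. The gene lies on chromosome 9 from 81628291 to 81633828 on the minus strand. D430036J16Rik, annotated over it on the other strand, had 2.98 TPM in replicate 1 and 2.15 TPM in replicate 2; whether the counting used strand is not given in the sources used here, so the split of reads between this pair is uncertain. Htr5a, a Gi/o receptor expressed mainly in the nervous system, came next with 2.27 TPM in replicate 1 and 2.39 TPM in replicate 2 (mean 2.33 ± 0.0849), from 922 and 1795 estimated counts, and lies on chromosome 5 from 27842149 to 27855088. Htr1a, the autoreceptor on the cell bodies and dendrites of serotonin neurons, had 2.16 TPM in replicate 1 and 1.79 TPM in replicate 2 (mean 1.98 ± 0.262), from 689 and 1059 estimated counts, and is a gene of 1 exon on chromosome 13 from 105443639 to 105448122. Htr1d, an autoreceptor and the target of triptans together with Htr1b, was the lowest of the Gi/o genes. Its level was 0.93 TPM in replicate 1 and 0.94 TPM in replicate 2 (mean 0.935 ± 0.00707), from 153 and 294 estimated counts, and it lies on chromosome 4 from 136423524 to 136444398.

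Htr3a, the obligatory subunit of the type 3 channel, was the lowest of the 10. It had 0.24 TPM in replicate 1 and 0.16 TPM in replicate 2 (mean 0.20 ± 0.0566, SD, n = 2), from 33 and 42 estimated counts. The exact Poisson intervals (95%, counting error only) ran from 22.7 to 46.3 counts in replicate 1 and from 30.3 to 56.8 in replicate 2. It lies on chromosome 9 from 48899213 to 48911099 on the minus strand. Htr3b, the subunit that can join Htr3a in the channel, had 0 counts in both libraries, which allows up to 0.0184 TPM in replicate 1 and 0.00992 TPM in replicate 2 at 3 counts a library. Set against that allowance for Htr3b, the level of Htr3a was 13.1-fold higher in replicate 1 and 16.1-fold higher in replicate 2. These ratios leave out the counting error of Htr3a, so they are not lower bounds. Of 6 markers of the cortical interneuron class named for Htr3a, 4 reached 1 TPM in both libraries, among them Reln and Calb2, which other midbrain neurons also express; Vip had 0.02 TPM in replicate 1 and 0.27 TPM in replicate 2.

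By coupling, the 4 Gi/o genes summed to 9.76 TPM in replicate 1 and 9.43 TPM in replicate 2, or 40.9% and 40.2% of the 10 genes' total. The 3 Gs genes held 30.9% of the total in replicate 1 and 30.6% in replicate 2. The 2 Gq genes summed to 6.49 TPM in replicate 1 and 6.69 TPM in replicate 2, which was 27.2% and 28.5% of the total. Htr7 thus carried most of the Gs sum and Htr2c most of the Gq sum. In the Gi/o class Htr1b was highest, and the next 2 genes lay close. Htr5a was 1.05-fold above Htr1a in replicate 1 and 1.34-fold above it in replicate 2. The channel held 1.01% in replicate 1 and 0.682% in replicate 2.

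The order of the levels was set against the spread of the 2 libraries by taking ratios within each library, which need no scaling between them. Of the 45 pairs, 28 differed by 2-fold or more in the same direction in each library and 17 did not. Htr7 stood 22.8-fold above Htr3a in replicate 1 and 32.9-fold in replicate 2, the widest pair. Htr3a was at least 2-fold below each of the other 9 genes in both libraries. Of the 9 steps between neighbours in the order, 6 had library values that did not overlap. The 3 that overlapped were Htr1a over Htr2a, Htr6 over Htr1d and Htr1d over Htr4, so the order within these changed from library to library. The order of the top 3 was no firmer. With protein-coding transcripts only it was reversed, with means of 4.34 TPM for Htr1b, 4.09 TPM for Htr2c and 3.56 TPM for Htr7. That Htr2c value still held the coding forms without the segment. The deposited bounds of Htr7 (5.17 to 5.90 TPM) and Htr2c (4.56 to 6.03 TPM) overlapped in replicate 1. Among the top 3 the steps were small: Htr7 was 1.09-fold above Htr2c in replicate 1 and 1.11-fold above it in replicate 2. The drop below Htr1b was larger, since Htr1b was 1.94-fold above Htr5a in replicate 1 and 1.80-fold above it in replicate 2. Some pairs lay near the limit: Htr2c exceeded Htr5a by a log2 ratio of 1.11 in replicate 1 and 0.96 in replicate 2, which left it uncounted.

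**Figure D2:**
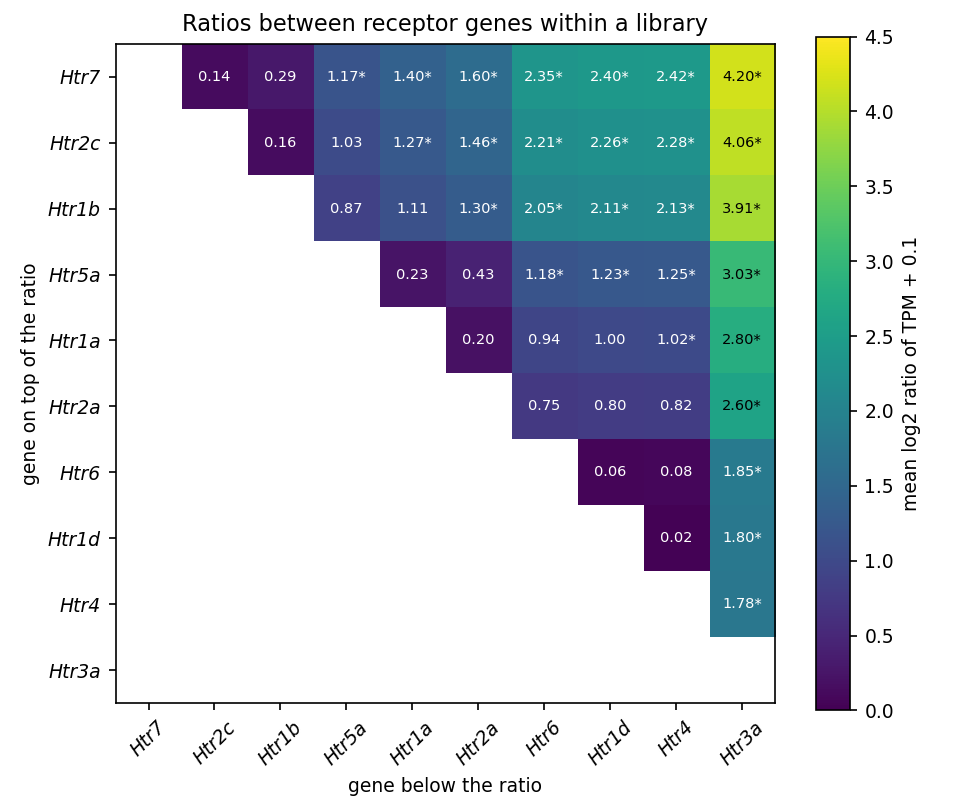
Mean log2 ratio of TPM plus 0.1 over the 2 libraries for each of the 45 pairs of receptor genes (row gene over column gene, both in order of mean level; colour and printed value show the ratio). An asterisk marks the 28 pairs that were 2-fold or more apart in the same direction in each library, which include all 9 pairs with Htr3a.

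Of the 14 serotonin receptor genes of the mouse that were looked up, 4 lie outside the list of 10, and none of these reached 1 TPM in both libraries. Htr5b, the close relative of Htr5a that is no longer a working gene in humans, had 1.27 TPM in replicate 1 and 0.50 TPM in replicate 2, from 161 and 117 estimated counts. Htr1f, a Gi/o receptor that lasmiditan targets, had 0.15 TPM in replicate 1 and 0.39 TPM in replicate 2, from 25 and 122 estimated counts. These 2 genes differed more between the libraries than any of the 10 did. Htr2b, the Gq receptor of heart valves, had 0 counts in both libraries, as had Htr3b. It lies opposite Psmd1, a proteasome subunit gene with 22.0 TPM in replicate 1 and 16.7 TPM in replicate 2.

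Between the libraries, none of the 10 receptors differed by 2-fold, beside a background of 17.0% of genes (3158 of 18554 with a summed count of at least 10). The ratio was taken as replicate 1 over replicate 2 on counts scaled by edgeR's trimmed mean of M values, with a single library on each side. The receptors' log2 ratios ran between -0.67 for Htr2a and 0.25 for Htr3a. Their median size without sign was 0.22, against 0.28 over all genes compared, so the spread of the receptors was of the same order as that of other genes. By sign, 4 were higher in replicate 1 and 6 in replicate 2. The 95% counting interval of the ratio included 0 for 4 genes, Htr1b, Htr1a, Htr4 and Htr3a, and lay off 0 for the other 6, beside a background of 69.3% of genes (12862 of 18554), so the count is no result about the receptors.

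Htr2a and Htr6 differed most. The log2 ratio of Htr2a was -0.67 (counting interval -0.87 to -0.48), lower in replicate 1. That of Htr6 was -0.63 (-0.93 to -0.33), also lower in replicate 1. Over the same libraries 7 of the 10 choroid plexus markers and 7 of the 8 hindbrain Hox genes were more than 2-fold higher in replicate 2, with Hoxd3, Hoxb8 and Hoxa3 at 0 counts in replicate 1, and the part of this in the receptors' ratios was not tested. TPM itself ran higher in replicate 1, where the median gene compared had a log2 ratio of 0.25, so a level in TPM and a ratio of scaled counts can differ in sign. Htr7 is such a case: its TPM was higher in replicate 1, while its scaled counts gave -0.12 (-0.23 to -0.01). Htr1a changed sign likewise, with -0.02 on scaled counts and 0.26 on TPM.

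**Figure D3:**
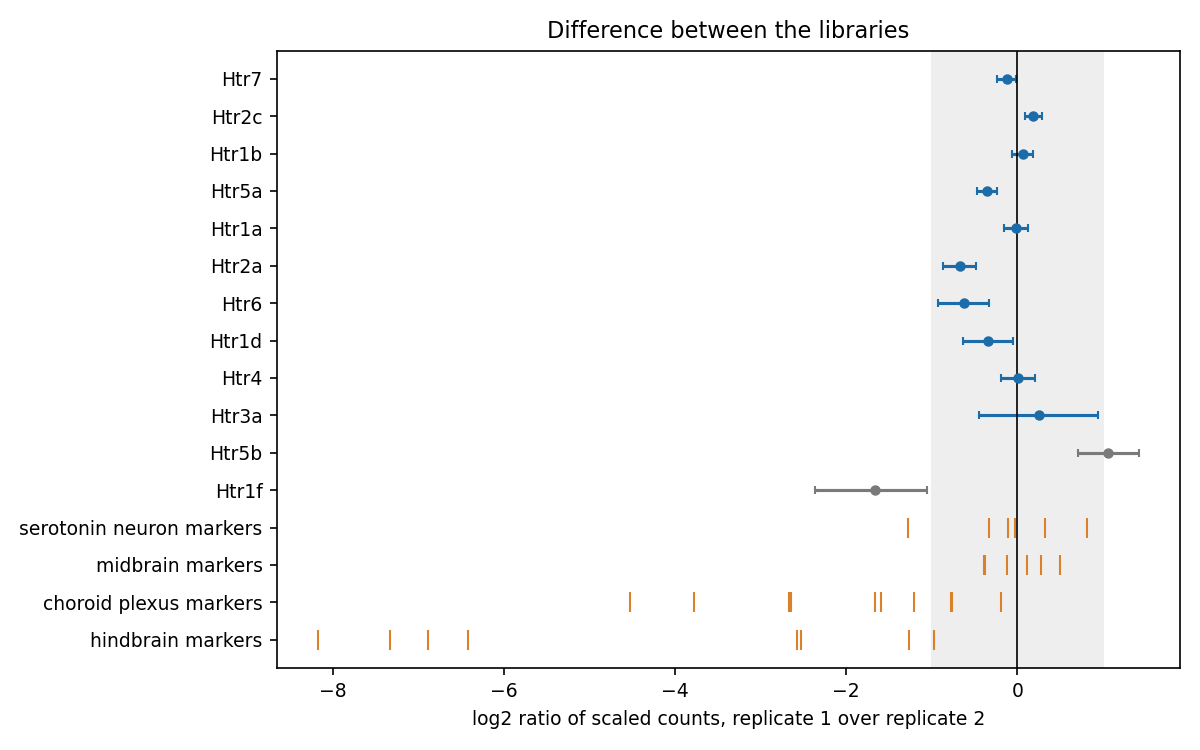
Log2 ratio of scaled counts, replicate 1 over replicate 2 (horizontal axis), for the 10 receptors (blue), for Htr5b and Htr1f (grey), each with its 95% counting interval, and for single marker genes of 4 lists (orange ticks). Grey shading spans a 2-fold difference either way: all 10 receptors lie inside it, while Htr1f and most choroid plexus and hindbrain markers lie to its left, higher in replicate 2.

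Of the 10 genes, 5 were quantified as more than 1 transcript, and by deposited percent the same transcript led in both libraries for 4 of them. Htr6-202 carried 93.1% of its gene in replicate 1 and 100% in replicate 2. Htr1d-202 carried 74.2% of its gene in replicate 1 and 61.9% in replicate 2, with Htr1d-201 taking most of the rest. By posterior means Htr1d-202 carried less, 57.5% in replicate 1 and 54.7% in replicate 2, and its deposited bounds in replicate 2 (0.400 to 0.718 TPM) overlapped those of Htr1d-201 (0.233 to 0.448 TPM). Only Htr6 of these 2 genes thus had a leader near its whole level. Htr1b had none that held: Htr1b-202 led with 53.8% in replicate 1, and Htr1b-201, a single-exon form that lies within it, led with 62.5% in replicate 2.

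For Htr2c, the form that keeps the 95-base segment, Htr2c-201, led with 59.7% of the gene in replicate 1 and 38.8% in replicate 2. Htr2c-207, which lacks the segment, carried 17.6% in replicate 1 and 18.8% in replicate 2. Htr2c-203, the short transcript of 809 bases that also lacks it, carried 3.13% in replicate 1 and 29.3% in replicate 2. As a percent of the whole gene, the long form without the segment thus differed little between the libraries and the short one differed widely. Htr2c-203 rested on 6.34 estimated counts in replicate 1 and 104.4 in replicate 2, which its small length turns into a large TPM. Of the TPM of the 4 protein-coding Htr2c transcripts, the forms without the segment held 25.9% in replicate 1 and 54.8% in replicate 2. By estimated counts that share was 22.7% in replicate 1 and 35.5% in replicate 2, and with the short transcript left out it was 22.8% of TPM in replicate 1 and 32.1% in replicate 2. By estimated counts with the short transcript left out it was 22.4% in replicate 1 and 31.7% in replicate 2. On all 4 scales the share was higher in replicate 2. The forms without the segment are known in brain as a truncated receptor that does not bind serotonin. Transcripts annotated as retained introns or as processed encode no receptor. Of the TPM of the whole gene, not of the 4 protein-coding transcripts, they took 19.6% in replicate 1 and 12.2% in replicate 2.

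For Htr7, Htr7-205 led with 30.6% of the gene in replicate 1 and 41.8% in replicate 2. This lead was not firm. In replicate 1 its deposited bounds (0.943 to 2.53 TPM) overlapped those of Htr7-202 (0.430 to 2.15 TPM). In replicate 2 its bounds (1.74 to 2.66 TPM) just overlapped those of Htr7-201 (0.876 to 1.75 TPM). Among the 3 coding forms it held 52.5% of TPM in replicate 1 and 56.0% in replicate 2. By estimated counts its share was 52.8% in replicate 1 and 68.9% in replicate 2. The split between the other 2 forms was uncertain as well. Htr7-202 held 47.5% of the coding TPM in replicate 1 and 8.65% in replicate 2, while Htr7-201, with the extra exon, was listed at 0 in replicate 1 and held 35.4% in replicate 2, or 20.6% by estimated counts. The deposited bounds of Htr7-202 overlapped, at 0.430 to 2.15 TPM in replicate 1 and up to 0.704 TPM in replicate 2. The deposited upper credibility bound of Htr7-201 in replicate 1 was 0.435 TPM, beside bounds of 0.876 to 1.75 TPM in replicate 2, which did not overlap it. Transcripts annotated for nonsense-mediated decay, the pathway that destroys messages with an early stop, held 41.9% of Htr7 TPM in replicate 1 and 25.4% in replicate 2, so not all of the Htr7 level is message for a receptor.

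**Figure D4:**
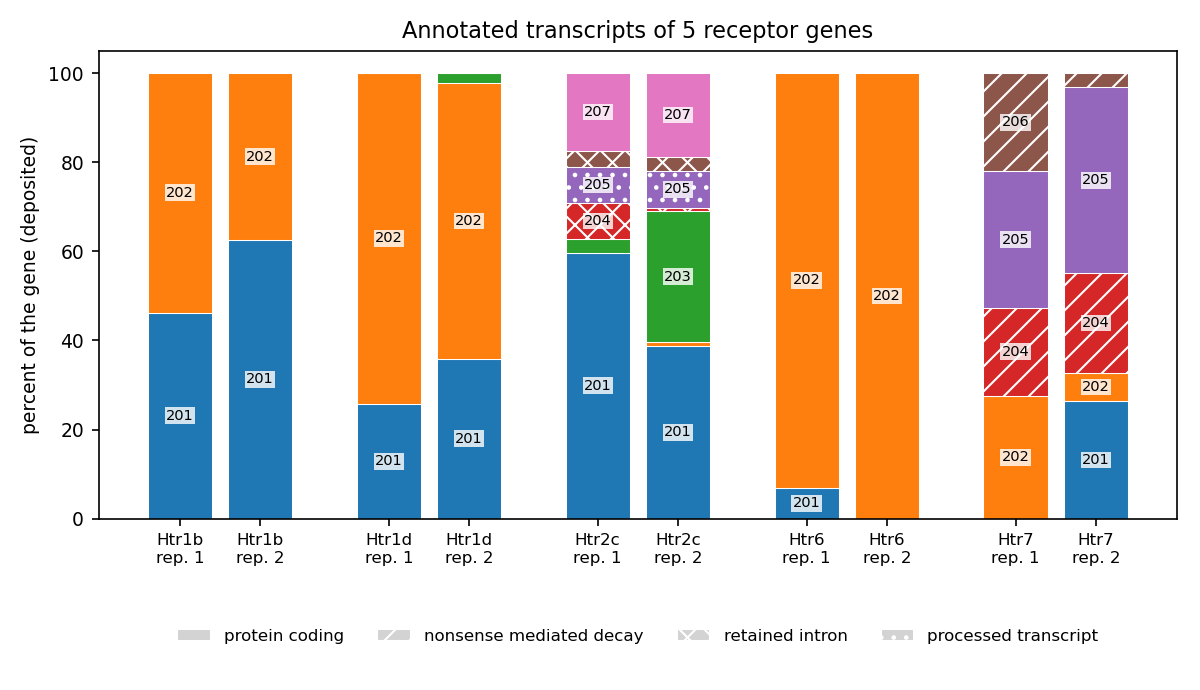
Percent of each gene carried by each of its annotated transcripts, as deposited (vertical axis), for the 5 receptors with more than 1 transcript, replicate 1 left of replicate 2. Numbers inside the bars are the transcript suffixes. Hatching marks transcripts annotated for nonsense-mediated decay, as retained introns or as processed. Htr2c-203 and Htr2c-207 lack the segment but are annotated as protein-coding, so they are not hatched. Htr2c-203 is 3.13% of its gene in replicate 1 and 29.3% in replicate 2, while Htr2c-207 stays near 18%.

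The genes that make, move and break down serotonin overlapped the receptors in level. Of 11 supply genes, 7 reached 1 TPM in both libraries. Slc6a4, the serotonin transporter, had 7.68 TPM in replicate 1 and 5.05 TPM in replicate 2, and Maoa, which breaks serotonin down, had 8.16 TPM in replicate 1 and 5.47 TPM in replicate 2. Tph2, the neuronal enzyme that limits serotonin synthesis, had 3.55 TPM in replicate 1 and 1.65 TPM in replicate 2. Ddc, the next enzyme of synthesis, had 7.46 TPM in replicate 1 and 5.02 TPM in replicate 2. Slc18a2, which loads serotonin into vesicles, had 4.45 TPM in replicate 1 and 3.95 TPM in replicate 2, and Gch1, which makes a cofactor of synthesis, had 1.99 TPM in replicate 1 and 1.62 TPM in replicate 2. Serotonin neuron markers were thus present, with 5 of 6 at 1 TPM or more in both libraries. All 6 summed to 21.1 TPM in replicate 1 and 15.2 TPM in replicate 2. Fev fell below the limit, with 0.82 TPM in replicate 1 and 0.62 TPM in replicate 2, from 16 and 60 estimated counts. The autoreceptor genes Htr1a, Htr1b and Htr1d cannot be assigned to these neurons from whole tissue.

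Most of the genes through which the receptors act had higher levels than any receptor. Of 25 G protein and effector genes, 18 had a mean above that of Htr7 and 7 a mean below it. In all, 22 reached 1 TPM in both libraries, with Gna14, Plcb2 and Kcnj5 below it. Gnas, which encodes the Gs subunit, had 349 TPM in replicate 1 and 296 TPM in replicate 2. Gnao1, the main neuronal Go subunit, had 78.2 TPM in replicate 1 and 68.5 TPM in replicate 2. Gnai2 and Gnaz, further subunits of the Gi class, had 47.7 and 46.1 TPM in replicate 1 and 44.2 and 40.9 TPM in replicate 2. Gnaq, through which Htr2a and Htr2c act, had 33.0 TPM in replicate 1 and 21.9 TPM in replicate 2, and Adcy1, an adenylyl cyclase, had 29.8 TPM in replicate 1 and 26.1 TPM in replicate 2. As single genes, Gnas stood above Gnao1 and Gnao1 above Gnaq, while among the receptor classes the Gi/o sum was highest in both libraries. A level of 1 gene and a sum over a class are unlike measures, so the 2 orders cannot be set against each other.

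All 18 partner genes, which cover chaperones, scaffolds, desensitisation and RNA editing, reached 1 TPM in both libraries. Snhg14, the host transcript of small nucleolar RNAs that pair with the edited segment of Htr2c, had 265 TPM in replicate 1 and 180 TPM in replicate 2. Dlg4, a synaptic scaffold that binds the tails of Htr2a and Htr2c, had 53.1 TPM in replicate 1 and 52.7 TPM in replicate 2. Grk2, a kinase that desensitises receptors, had 28.7 TPM in replicate 1 and 45.4 TPM in replicate 2. Tmem35a, a chaperone known from nicotinic receptors, Arrb1, an arrestin, and Fyn, a kinase that binds Htr6, had 32.2, 25.2 and 28.4 TPM in replicate 1 and 25.4, 29.8 and 22.2 TPM in replicate 2. The editing enzymes were present as well: Adar had 18.8 TPM in replicate 1 and 13.8 TPM in replicate 2, and Adarb1 had 11.5 TPM in replicate 1 and 9.25 TPM in replicate 2; both were chosen for naming after their values were seen. Snora35, Mir764, Mir1912, Mir1264, Mir1298 and Mir448, which lie in introns of Htr2c, had 0 counts in both libraries, but their mature RNAs are shorter than the 200 nucleotides the libraries kept.

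**Figure D5:**
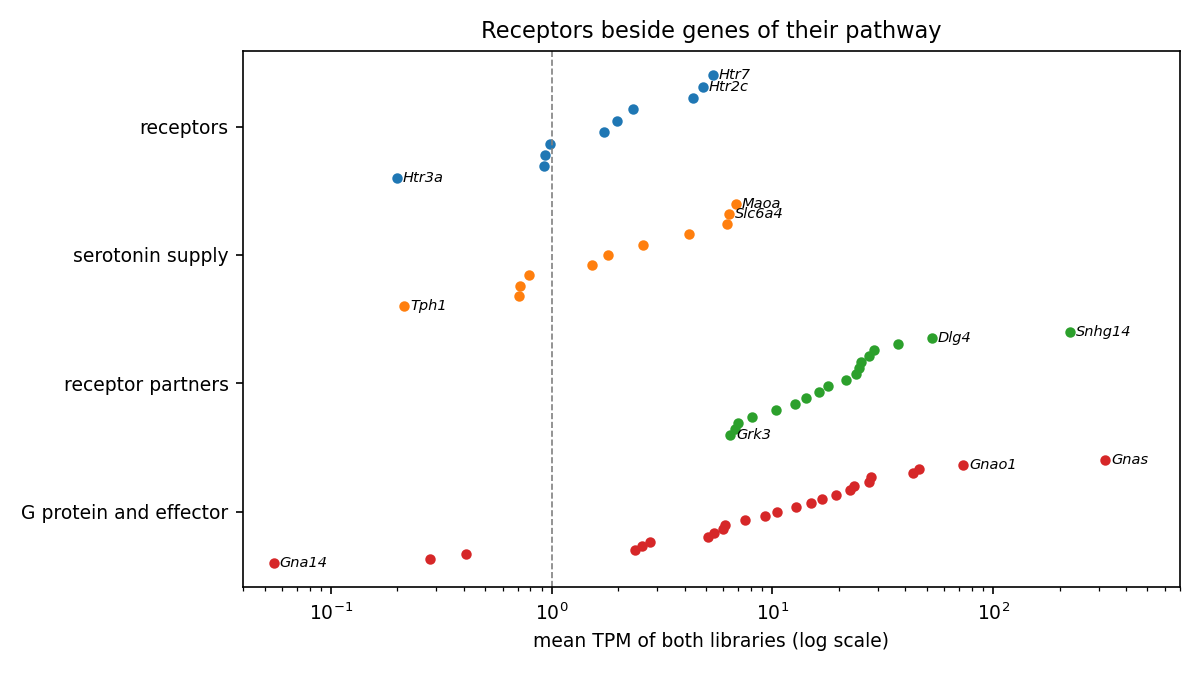
Mean TPM over the 2 libraries (horizontal log axis) of the 10 receptors, 11 serotonin supply genes, 18 partner genes and 25 G protein and effector genes, each point a gene, with the highest 2 and the lowest of each list named and the dashed line at 1 TPM. The receptors span 0.20 to 5.37 TPM and overlap the supply genes, while all partner genes lie above the receptors.

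Receptors of 2 other transmitters of the midbrain were looked up after the serotonin values were seen, to set the levels beside them. The 10 serotonin receptors summed to 23.9 TPM in replicate 1 and 23.4 TPM in replicate 2. The 5 dopamine receptor genes summed to 3.93 TPM in replicate 1 and 3.59 TPM in replicate 2, with Drd2, the autoreceptor of dopamine neurons, the only 1 of the 5 at 1 TPM in both libraries, and Drd3 at 0 counts in both. The 5 muscarinic acetylcholine receptor genes summed to a mean of 15.3 ± 6.66 TPM (SD, n = 2), higher in replicate 1. Sums over families of unequal size count genes as well as levels: the median of mean levels was 1.85 TPM for the 10 serotonin receptors, 0.45 TPM for the dopamine receptors and 1.52 TPM for the muscarinic receptors. The 10 are not the whole family, while the other 2 lists hold 5 genes each with their lowest kept. Over all 14 serotonin receptor genes the median was 0.96 TPM, below that of the muscarinic receptors.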

How the data were processed

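Per the deposited notes, the authors quantified genes and transcripts on mm10 with GENCODE release M4. The aligner and the counting program were not given in the sources used here. They deposited estimated counts, which need not be whole, TPM and FPKM values, credibility bounds of TPM and the percent of a gene carried by each transcript. FPKM, as deposited by the authors, served only as an alternative. Symbols, coordinates and transcript sequences were taken from GENCODE M21, built on the same assembly, which matched 42462 of 43346 gene identifiers; protein sequences were not used here.

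Levels are means ± SD over 2 libraries. Pair ratios were log2 of TPM plus 0.1 within a library and were counted at 2-fold or more the same way in both. Library ratios used estimated counts rounded to whole numbers, scaled with edgeR 4.0.16 in R 4.3.3, with a prior count of 0.5 and a summed count of at least 10; DESeq2 1.42.0 size factors were an alternative. Tables were handled in Python 3.11.15 with pandas 2.3.3 and SciPy 1.17.1. The ratio step was also run on simulated counts with counting error only. Those counts lack the wider spread between these 2 libraries, so that run does not cover it. Counting intervals are exact at 95% and cover counting error only.

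All 10 receptors and the 4 other family genes are named; of the other lists, up to 6 genes with the highest mean and any gene at 0 in both libraries. Genes named only to show a difference in tissue (Ttr, Vip, Hoxd3, Hoxb8, Hoxa3), the genes annotated over a receptor, the 3 effector genes under 1 TPM, Fev, Reln, Calb2 and Drd2 were added after their values were seen. The members and lists were chosen with earlier results of these data known.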

Additional observations from a re-analysis of the deposited data

How the results depend on the processing

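The count of receptor pairs at least 2-fold apart in both libraries was 28, and 17 with a pseudocount of 1; the other alternatives gave between 24 and 29, and leaving out a library 30 to 31. The Gq sum of 6.59 TPM became 6.75 with posterior mean TPM and 5.81 with protein-coding transcripts only. The Gs sum of 7.27 TPM became 5.46 with protein-coding transcripts only. The last 2 values leave out Htr2c and Htr7 transcripts not annotated as protein-coding, which left Htr1b at 4.34, Htr2c at 4.09 and Htr7 at 3.56 TPM. The Htr2c value still held the forms without the segment. The coding forms that keep it had 2.98 TPM in replicate 1 and 1.88 TPM in replicate 2. With a library left out, the Gi/o sum ran from 9.43 to 9.76 TPM, the Gq sum from 6.49 to 6.69, the Gs sum from 7.17 to 7.37 and Htr3a from 0.16 to 0.24. The number of receptors at 1 TPM in both libraries was 6, and 7 with posterior mean TPM or without either library. It was 9 at a limit of 0.5 TPM or when TPM was rescaled to protein-coding genes, and 4 at 2 TPM. The share of all protein-coding genes that passed is given only for the main setting. These other counts are therefore no result about the receptors. No receptor passed 2-fold between the libraries under library totals, DESeq2 size factors, deposited TPM or no filter on low counts. Of all genes compared, 17.0%, 17.0%, 12.5% and 24.9% passed under these settings, in that order. The log2 ratio of Htr1a was -0.02, and 0.02 with library totals and 0.26 on TPM; that of Htr7 was -0.12, and 0.06 on TPM. The share of coding Htr2c TPM without the segment, an alternative set chosen after the data were seen, averaged 40.3%, and 27.5% from Htr2c-207 alone or 29.1% by estimated counts. The number of leading transcripts shared by both libraries has no value with a library left out. No paired analysis was possible because the samples form a single group. Depth limits Htr3a, with 33 and 42 counts, most.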
